A study of Bos taurus with 2 samples.

Results

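CGA, SULT1E1, PTGDS, PAGE4 and DEFB1 are 5 bovine genes with far more transcripts in a blastoid library than in a blastocyst library. They are 5 of the 35643 features listed in both libraries, and each symbol belonged to a single feature. They were chosen by their ratio of UMIs between these 2 libraries, as the genes outside the marker lists where it was highest, so that ratio is a description and supports nothing. What follows asks which blastoid nuclei carry them, how their counts are spread over nuclei, and whether they are found together.

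The study profiled single nuclei (Bos taurus, genotype WT in both groups) from frozen blastoids and from frozen blastocysts of day 8. A blastoid is a blastocyst-like body that self-assembles in a microwell from stem cells. Here the starting cells were bovine expanded potential stem cells (bEPSC), extraembryonic endoderm cells (bXEN) and trophoblast stem cells (bTSC), mixed at 8, 8 and 16 cells per microwell in a medium with LIF, Activin A and the GSK3 inhibitor Chir99021. Each group had 1 library, the number of structures per library is not given, and the starting lines were not analysed here, so no test was possible and "gained" can only mean higher than in the blastocyst library. Age of the blastoids is likewise not given in the sources used here.

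CGA encodes the common alpha subunit shared by luteinizing hormone, follicle-stimulating hormone and thyrotropin. In primates and horses it also forms chorionic gonadotropin in trophoblast, whereas in cattle it is known chiefly as a pituitary gene. SULT1E1 is oestrogen sulfotransferase, which inactivates oestrogens by adding a sulfate group and is known from the ruminant placenta. PTGDS is lipocalin-type prostaglandin D synthase, a secreted enzyme and carrier best known from brain and the male reproductive tract. PAGE4 is an X-linked, intrinsically disordered protein known from placenta and prostate in humans. DEFB1 is a beta defensin, a small antimicrobial peptide of many epithelia. The word placental therefore describes the usual site of only some of them, and DEFB1, PTGDS and CGA are not placental markers in cattle.

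The ensuing values rest on 1914 kept blastoid barcodes with 7481886 UMIs (unique molecular identifiers, each standing for 1 captured transcript) and 827 kept blastocyst barcodes with 6861558 UMIs. The libraries shared 1 barcode sequence. Blastoid barcodes fell into 286 deep ones, with at least 4000 UMIs, and 1628 shallow ones, with a median of 1922 UMIs. Deep barcodes were clustered without the 5 genes. Clusters 2 and 3, with 93 and 52 nuclei, each had 8 trophectoderm markers raised, GATA2, GATA3, TFAP2A and CDX2 among them, and are called trophoblast-like (145 nuclei, median 14917 UMIs). Cluster 1 (141 nuclei, median 11110 UMIs) had none raised and is called DCC-high after the axon guidance receptor gene DCC, at 2476 CPM there against 26.8 CPM in the trophoblast-like nuclei. CPM means the share of a gene in all UMIs of the summed class, on the usual CPM scale. Shallow barcodes got no cell type name. Ribosomal protein genes made up 15.6% of their UMIs, against 2.57% in trophoblast-like and 2.64% in DCC-high nuclei. Mitochondrial genes made up 2.03%, 0.402% and 0.578% in the same order.

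In the whole libraries, CGA had 1466 UMIs in 911 blastoid barcodes and 0 in the blastocyst library, a CPM at least 448-fold higher when the blastocyst is set to 3 UMIs. DEFB1 had 951 UMIs in 671 blastoid barcodes and 0 in the blastocyst library, at least 291-fold higher by the same floor. SULT1E1 had 1639 UMIs against 2, a CPM ratio of 752 (95% interval 208 to 6211, counting error only, as for every interval here). PTGDS had 1394 UMIs against 2, a ratio of 639 (177 to 5283). PAGE4 had 5850 UMIs in 1755 of 1914 blastoid barcodes and 18 in the blastocyst library, a ratio of 298 (188 to 503). Among barcodes of at least 4000 UMIs alone these differences were smaller for each of the 5: on the log2 scale, with counts under 3 set to 3, CGA had 7.25 instead of 8.81, SULT1E1 8.49 instead of 8.97, PTGDS 7.52 instead of 8.74, PAGE4 6.78 instead of 8.22 and DEFB1 6.09 instead of 8.18. All 5 were thus over 4-fold higher, as were 11.2% of all genes compared, and hence also over 2-fold higher, as were 24.2%. Nothing is read from these counts because the genes were chosen on this contrast.

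Among 4045 ranked genes, SULT1E1, CGA and PTGDS held places 1 to 3 and PAGE4 and DEFB1 places 5 and 6. Place 4 was AFP, alpha-fetoprotein, a hypoblast marker and hence not picked. The first gene past the list, MFAP2, had 870 UMIs against 1, and the next, HOXB6, had 723 against 1. The edge of the list is therefore not marked by a gap, since DEFB1 stood at 291-fold and MFAP2 at 266-fold with the floor of 3 UMIs.

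The blastocyst library gives the level against which the blastoid was read. Its 18 PAGE4 UMIs lay in 14 barcodes, at most 2 in any of them, and 12 of the 14 were deep. After thinning to 2000 UMIs, 0.440% of 688 deep blastocyst barcodes were expected to show PAGE4 (0.0918 to 1.28%). CGA and DEFB1 were at 0 in all 827 blastocyst barcodes, which allows up to 0.437 CPM from 3 UMIs.

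In the blastoid library, counted per barcode, PAGE4 and DEFB1 were spread almost evenly over the 3 classes although these differed 8.30-fold in mean depth between trophoblast-like and shallow barcodes. DEFB1 was at 0.531 UMIs per barcode in trophoblast-like nuclei (0.419 to 0.664), 0.404 in DCC-high nuclei (0.306 to 0.524) and 0.502 in shallow barcodes (0.468 to 0.537), and these intervals overlap. PAGE4 was at 4.35 UMIs per barcode in trophoblast-like nuclei (4.02 to 4.70), 3.18 in DCC-high nuclei (2.90 to 3.49) and 2.93 in shallow barcodes (2.85 to 3.01). It was somewhat higher in trophoblast-like nuclei than in the other classes, whose intervals overlap each other.

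CGA was at 1.23 UMIs per barcode in trophoblast-like nuclei (1.05 to 1.42), 0.851 in DCC-high nuclei (0.706 to 1.02) and 0.717 in shallow barcodes (0.677 to 0.760). PTGDS was at 1.56 (1.36 to 1.78), 0.950 (0.796 to 1.13) and 0.635 (0.597 to 0.675) UMIs per barcode in the same order. Both were thus highest in trophoblast-like nuclei, by less than 2.5 times over shallow barcodes. SULT1E1 was the exception, at 3.76 UMIs per trophoblast-like nucleus (3.45 to 4.09), 1.12 per DCC-high nucleus (0.953 to 1.31) and 0.575 per shallow barcode (0.539 to 0.613).

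**Figure D1:**
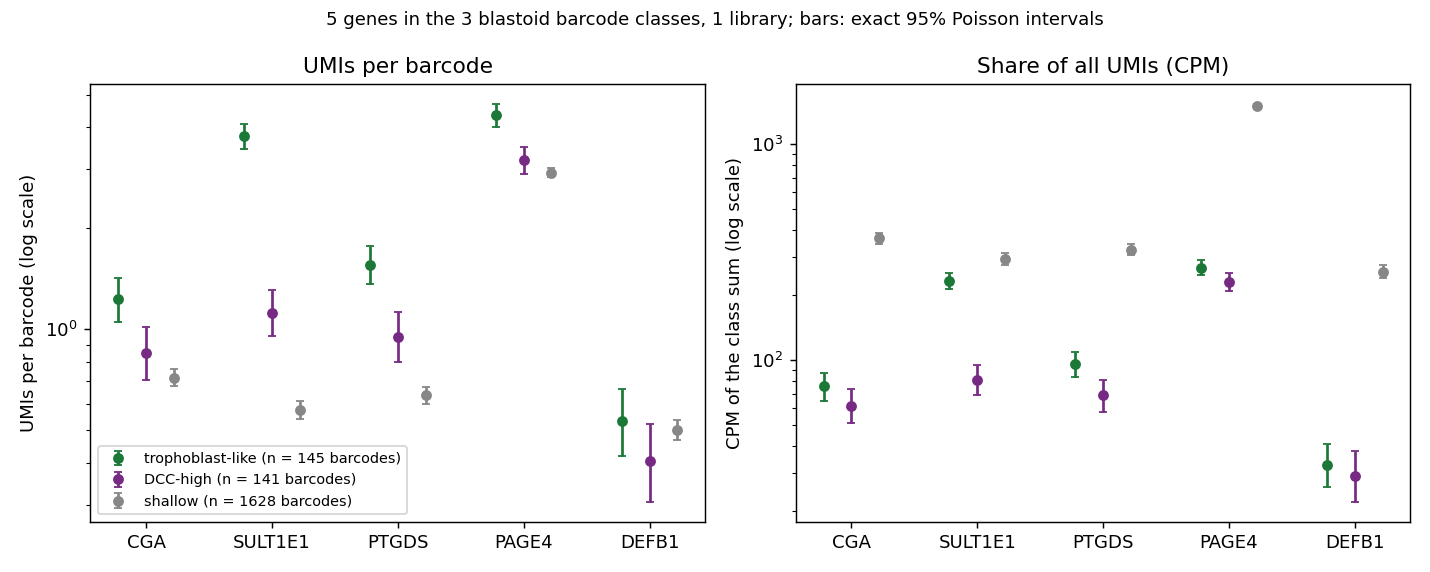
UMIs per barcode (left, log axis) and CPM (right, log axis) of the 5 genes in trophoblast-like, DCC-high and shallow blastoid barcodes of 1 library, with exact 95% Poisson intervals. DEFB1 lies between 0.404 and 0.531 UMIs per barcode in the 3 classes, SULT1E1 between 0.575 and 3.76, and each gene has its highest CPM in shallow barcodes.

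As shares of all UMIs the order turned round, because shallow barcodes have few UMIs. DEFB1 was at 257 CPM in shallow barcodes against 32.8 CPM in trophoblast-like nuclei, a ratio of 7.84 (6.20 to 10.04). PAGE4 was at 1499 against 268 CPM, a ratio of 5.59 (5.14 to 6.08). CGA was at 367 against 75.7 CPM (ratio 4.85, 4.14 to 5.71) and PTGDS at 325 against 96.1 CPM (ratio 3.38, 2.92 to 3.92). SULT1E1 was at 294 against 232 CPM, a ratio of 1.27 (1.14 to 1.41). At clustering resolution 1.0 the log2 of that ratio was 0.15 (-0.01 to 0.32), which includes no difference. It was further from 0 at 0.99 (0.83 to 1.14) under scaling by the median gene, 0.89 (0.71 to 1.07) without the 5 highest barcodes of each class and 0.58 (0.43 to 0.74) without ribosomal and mitochondrial genes in the scaling, beside a main value of 0.34 (0.19 to 0.50). A CPM at least 4-fold higher in shallow barcodes was seen for 3 of the 5 genes, against 8.68% of all genes compared. Against DCC-high nuclei it was seen for 4 of the 5, against 8.46% of all genes. DEFB1, at 29.2 CPM in DCC-high nuclei, met the 50 CPM needed for ranking only through its shallow barcodes. Its shallow excess is thus partly set by the choice of genes, and its part in these counts is a description.

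The shallow barcodes, 85.1% of kept barcodes and 42.5% of their UMIs, held most transcripts of each gene. They had 85.9% of the DEFB1 UMIs, 81.5% of PAGE4, 79.7% of CGA, 74.2% of PTGDS and 57.1% of SULT1E1. Trophoblast-like nuclei, 7.58% of barcodes and 31.4% of UMIs, held 33.3% of the SULT1E1 UMIs but 8.10% of those of DEFB1.

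The per-barcode ratio of trophoblast-like over shallow barcodes placed the 5 genes against 4949 genes with at least 100 shallow UMIs. The median gene had 7.09 times as many UMIs per trophoblast-like nucleus as per shallow barcode, and 83.9% of genes had a ratio of 2 or more. SULT1E1, at 6.54 (5.87 to 7.27), and PTGDS, at 2.45 (2.12 to 2.84), were 2 of the 5 that did. CGA had 1.71 (1.45 to 2.00), PAGE4 1.49 (1.36 to 1.61) and DEFB1 1.06 (0.827 to 1.34). For DCC-high over shallow barcodes, 77.1% of genes had a ratio of 2 or more and 0 of the 5 did, SULT1E1 coming nearest at 1.95 (1.64 to 2.31). Genes with a lower trophoblast-like over shallow ratio made up 1.17% of all for DEFB1, 8.20% for PAGE4, 11.9% for CGA, 21.6% for PTGDS and 47.7% for SULT1E1. The place of DEFB1 is partly set by its choice, since it was ranked only through its shallow barcodes. For reference, 68 ribosomal protein genes had a median ratio of 1.32 and the keratin gene KRT8 had 1.95. Of hypoblast markers that the blastocyst library had at 0, AFP had 1.39 and TTR 1.61. APOB had 5.68 (3.80 to 8.37) on 81 shallow UMIs and FOXA1 8.02 (2.01 to 29.4) on 7. Both fall short of the 100 shallow UMIs asked of the genes compared. GATA2 and GATA3, which helped name the trophoblast-like class, had 20.0 and 24.5. The trophectoderm marker list as a whole had 61.3 UMIs per trophoblast-like nucleus and 24.3 per shallow barcode. Its CPM was higher in shallow barcodes, at 12425 against 3780, as for the 5 genes. RNA outside nuclei was not analysed here, as droplets without nuclei were not used, and its part in these even levels was not tested.

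**Figure D2:**
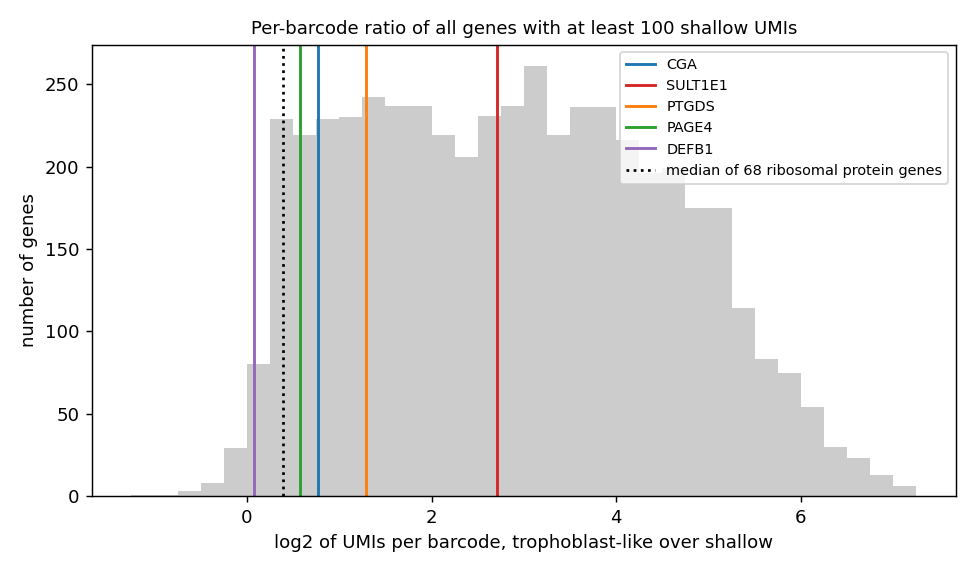
Number of genes by the log2 ratio of UMIs per barcode, trophoblast-like over shallow, for the 4949 genes with at least 100 shallow UMIs; coloured lines mark the 5 genes and the dotted line the median of 68 ribosomal protein genes. DEFB1, PAGE4, CGA and PTGDS lie in the low part of the distribution, PTGDS highest of these, and SULT1E1 near the middle.

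The blastoid barcodes were also split into 7 bins of depth. The 3 deep bins differ in class, with 15 of 49, 67 of 134 and 63 of 103 barcodes trophoblast-like. DEFB1 went from 0.354 UMIs per barcode in the 147 barcodes under 1500 UMIs (0.264 to 0.464) to 0.720 in the 118 barcodes between 2500 and 4000 UMIs (0.575 to 0.891), then stood at 0.510, 0.410 and 0.524 in the 3 deep bins. It was thus not higher in the 103 deepest barcodes, with a median of 21037 UMIs, than in shallow ones of 2500 to 4000 UMIs. PAGE4 ran from 2.17 to 3.66 UMIs per barcode over the 4 shallow bins and was at 2.92, 3.49 and 4.56 in the deep ones. Ribosomal protein genes together had 226 to 389.6 UMIs per barcode in the shallow bins and 297, 362 and 473 in the deep ones.

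CGA was between 0.625 and 0.847 UMIs per barcode in the shallow bins and at 0.612, 0.985 and 1.32 in the deep ones. PTGDS was between 0.578 and 0.907 in the shallow bins and reached 1.49 UMIs per barcode in the deepest. SULT1E1 was higher in each bin than in the one before, from 0.408 to 3.62 UMIs per barcode. Its CPM was between 269.6 and 300.1 in the shallow bins and between 153 and 179.8 in the deep ones. That of DEFB1 was between 245 and 267 in the shallow bins, so that it too followed depth there, and was 78.7, 35.4 and 22.2 in the deep ones.

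**Figure D3:**
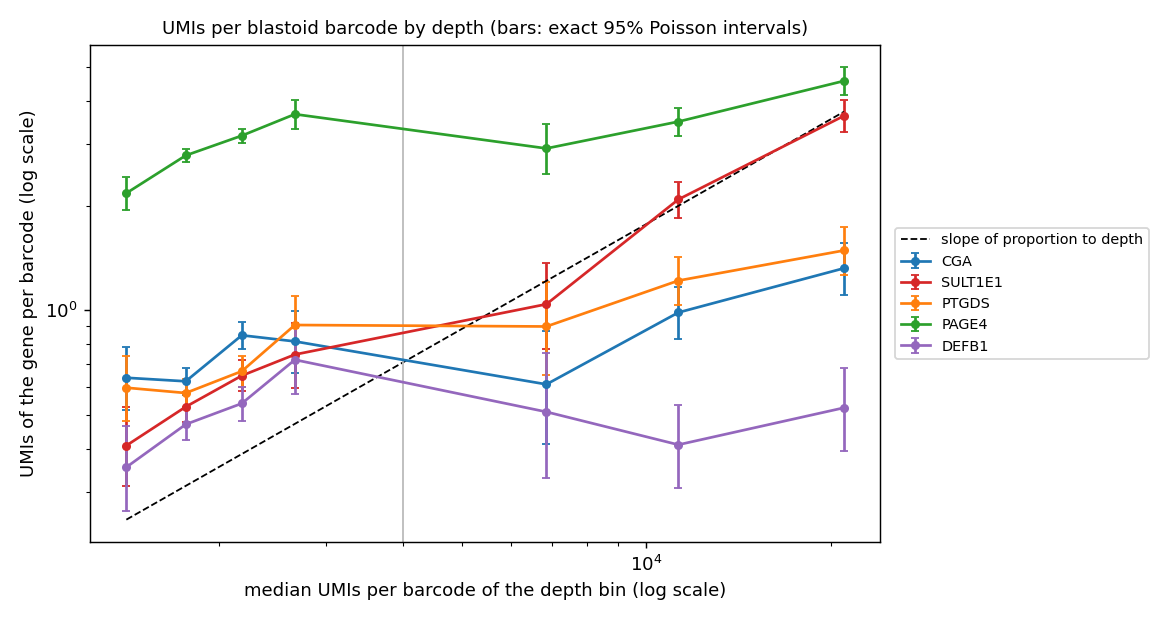
UMIs per barcode of each gene (log axis) against the median depth of 7 depth bins of blastoid barcodes (log axis), with exact 95% Poisson intervals; the grey line marks 4000 UMIs and the dashed line the slope of a gene in proportion to depth. DEFB1 is at 0.524 UMIs per barcode in the deepest bin and 0.720 in the bin below 4000 UMIs, while SULT1E1 reaches 3.62 UMIs per barcode in the deepest bin.

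The share of barcodes with a UMI was read at equal depth. Before thinning, PAGE4 was detected in 142 of 145 trophoblast-like nuclei (97.9%), 125 of 141 DCC-high nuclei (88.7%) and 1488 of 1628 shallow barcodes (91.4%). After thinning to 2000 UMIs, which left out 941 shallow barcodes, the expected share was 43.3% in trophoblast-like nuclei (35.1 to 51.7%), 41.3% in DCC-high nuclei (33.1 to 49.9%) and 91.1% in 687 shallow barcodes (88.8 to 93.2%). DEFB1 went from 35.9%, 29.8% and 35.4% of barcodes to 6.67%, 8.12% and 35.1% in the same order. For both genes the thinned share was highest in shallow barcodes, as the CPM was, and the intervals of the 2 deep classes overlapped.

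CGA was in 56.6%, 53.2% and 46.3% of trophoblast-like, DCC-high and shallow barcodes, and thinned in 14.4% (9.09 to 21.1%), 13.9% (8.62 to 20.7%) and 46.9% (43.1 to 50.7%). PTGDS was in 77.2%, 56.0% and 43.6%, and thinned in 19.6%, 14.7% and 43.2%. SULT1E1 was in 69.7%, 43.3% and 42.4%, and thinned in 26.3% (19.4 to 34.3%), 11.6% (6.83 to 18.1%) and 42.9% (39.2 to 46.7%). At equal depth SULT1E1 alone of the 5 had intervals that were apart between trophoblast-like and DCC-high nuclei. No class is known to lack these genes, so no share here can be set against a level from a cell type without them.

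Trophoblast-like and DCC-high nuclei are closer in depth and alike in ribosomal share, and differ 6.49-fold in CPM of GATA2 (5.27 to 8.05), 1 of the markers that named the former. The trophectoderm marker list as a whole differed less, at 3780 CPM against 1960 CPM. SULT1E1 was at 232 CPM against 81.0 CPM, a ratio of 2.86 (2.39 to 3.44). PTGDS had a ratio of 1.40 (1.12 to 1.75) and PAGE4 one of 1.17 (1.03 to 1.32). CGA, at 75.7 against 61.5 CPM, had 1.23 (0.971 to 1.56), and DEFB1, at 32.8 against 29.2 CPM, had 1.12 (0.785 to 1.61), both with intervals that include 1. The interval of CGA lay just above 1 under 3 alternatives, a lower and a higher depth limit for deep barcodes and classes set by 6 genes, where the log2 ratio was 0.37 (0.03 to 0.71), 0.36 (0.01 to 0.71) and 0.37 (0.03 to 0.71). Only SULT1E1 of the 5 was at least 2-fold higher in trophoblast-like nuclei, as were 17.1% of all genes compared. Of 4 hypoblast markers that the blastocyst library had at 0 UMIs, AFP and TTR had ratios of 1.13 (0.829 to 1.54) and 1.22 (0.633 to 2.41). APOB, with 41 against 12 UMIs, had 2.83 (1.46 to 5.92), and FOXA1, with 5 against 4, had 1.04 (0.223 to 5.22).

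Within the trophoblast-like class, SULT1E1 had the largest ratio between clusters 2 and 3, though its counts lay in few nuclei. It was at 287.7 CPM in cluster 2 and 126 CPM in cluster 3, a ratio of 2.28 (1.83 to 2.85), and was detected in 69 of 93 and 32 of 52 nuclei. Of the 25 nuclei with at least 5 SULT1E1 UMIs, 19 were in cluster 2. The interval leaves out this spread between nuclei, and no ratio without the highest nuclei was computed here. PAGE4 was lower in cluster 2, with a ratio of 0.819 (0.696 to 0.965). CGA, PTGDS and DEFB1 had ratios of 0.879 (0.643 to 1.21), 0.896 (0.680 to 1.19) and 1.10 (0.672 to 1.85).

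Counts of SULT1E1 were concentrated in few nuclei. The 5 highest trophoblast-like nuclei had 58, 42, 38, 29 and 29 UMIs, 15 of the 145 had at least 10, and 44 had 0. The 5 highest DCC-high nuclei had 40, 18, 7, 7 and 4 UMIs. No shallow barcode had more than 5. Depth is unequal, with medians of 14917, 11110 and 1922 UMIs in trophoblast-like, DCC-high and shallow barcodes. These maxima therefore do not show that shallow barcodes lack high shares of SULT1E1. The 15 highest of the 145 trophoblast-like nuclei held 63.3% of the class's SULT1E1 UMIs, and the 15 highest for each other gene held 42.9% for DEFB1, 41.0% for CGA, 31.0% for PTGDS and 24.7% for PAGE4. The variance of UMIs over nuclei, divided by their mean (1 for pure counting error at equal depth), was 17.2 for SULT1E1 in trophoblast-like nuclei and 12.7 in DCC-high nuclei, above 99.1% and 97.5% of genes with at least 50 UMIs there. In shallow barcodes it was 1.09, above 29.6% of genes.

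CGA had a few high nuclei in the trophoblast-like class. Its 5 highest nuclei there had 12, 10, 8, 6 and 4 UMIs, against 5, 4, 3, 3 and 3 in DCC-high nuclei, and its variance over mean was 2.52 against 1.21. It was above 77.9% of genes in trophoblast-like nuclei, 9.20% in DCC-high nuclei and, at 1.32, 91.1% in shallow barcodes. In trophoblast-like nuclei the same measure, which also depends on a gene's mean, was 2.04 for PAGE4, 1.30 for PTGDS and 1.20 for DEFB1, beside a median over genes of 1.67. No trophoblast-like nucleus had more than 3 DEFB1 UMIs.

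**Figure D4:**
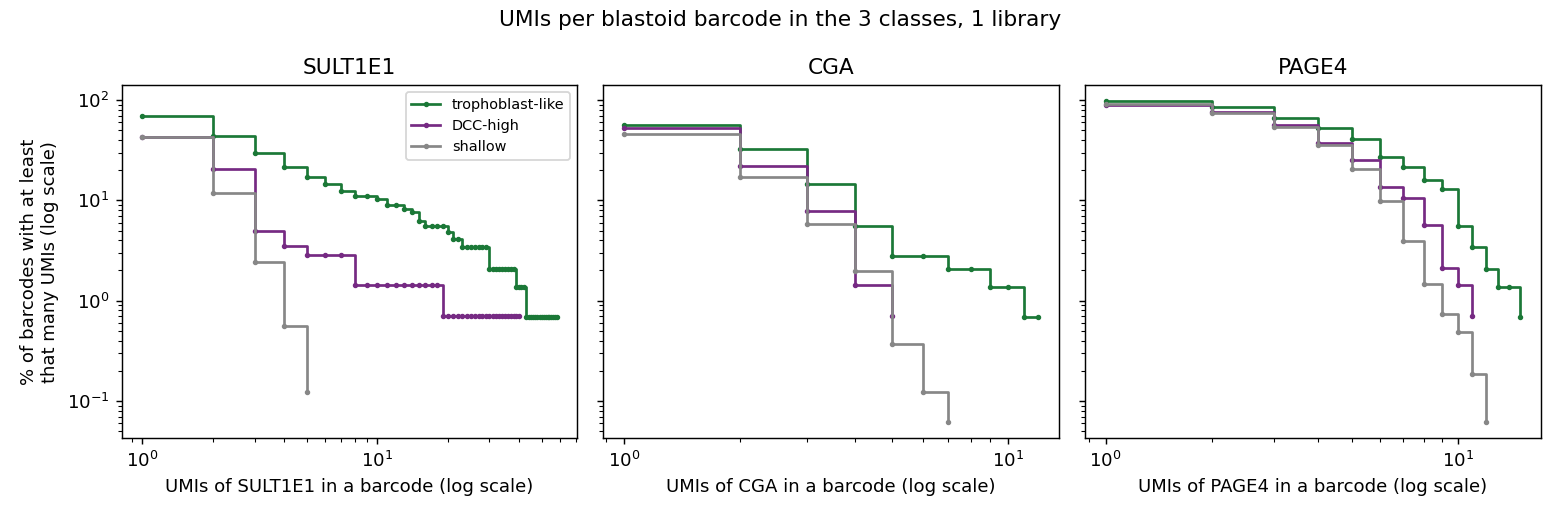
Percentage of barcodes (log axis) with at least a given number of UMIs (log axis) of SULT1E1, CGA and PAGE4 in the 3 blastoid classes. SULT1E1 reaches 58 UMIs in a trophoblast-like nucleus and 40 in a DCC-high nucleus but 5 in a shallow barcode, whereas PAGE4 reaches 15, 11 and 12. Counts are not scaled to depth, which differs between the classes.

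The 5 trophoblast-like nuclei highest in SULT1E1 were not the 5 highest in CGA. Those with 58, 42, 38, 29 and 29 SULT1E1 UMIs had 0, 1, 1, 1 and 0 CGA UMIs, and those with 12, 10, 8, 6 and 4 CGA UMIs had 1, 0, 1, 3 and 3 SULT1E1 UMIs. The 25 trophoblast-like nuclei with at least 5 SULT1E1 UMIs, 17.2% of the class, held 74.5% of its SULT1E1 UMIs, and 19 of them were in cluster 2. In these 25, CGA was at 45.4 CPM (27.3 to 70.9), against 86.9 (71.1 to 105) in the 76 nuclei with 1 to 4 SULT1E1 UMIs and 74.6 (56.0 to 97.4) in the 44 with 0. PTGDS was at 124 CPM (92.8 to 163) in the 25, and at 92.7 and 85.7 CPM in the others. PAGE4 was at 294, 267 and 256 CPM. These bins were set after the counts had been seen.

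The high SULT1E1 nuclei of the DCC-high cluster were mixed in their other genes. The one with 40 UMIs had 99 DCC UMIs and also 9 each of GATA2 and GATA3 among its 51033 UMIs, over 4 times the class median. The one with 18 had 3 DCC and 39 CTNNA2 UMIs, CTNNA2 being an alpha catenin gene of neural adhesion. Of the pair with 7 UMIs, one had 101 DCC and 4 GATA2 UMIs and the other 1 DCC and 8 GATA2 UMIs. Whether such barcodes hold 2 nuclei was not tested beyond the removal of 30 likely doublets.

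Detection of the 5 genes in the same barcode was compared class by class. All 5 were seen in 17 of 145 trophoblast-like nuclei (11.7%), 6 of 141 DCC-high nuclei (4.26%) and 53 of 1628 shallow barcodes (3.26%), and the median number was 3 in each class. These counts are at unequal depth, and thinning to 2000 UMIs turned the order round, with all 5 in 0 of 145, 0 of 141 and 24 of 687 barcodes (3.49%) and medians of 1, 1 and 3. At equal depth the 10 pairs were compared by the share of barcodes with the second gene among those with and without the first. In 687 shallow barcodes thinned to 2000 UMIs the odds ratios ran from 0.738 for SULT1E1 with DEFB1 to 1.20 for CGA with DEFB1, with a median of 1.04. CGA with SULT1E1, for example, gave 43.1% of barcodes with SULT1E1 among those with CGA and 41.7% among those without.

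In trophoblast-like nuclei thinned to 4000 UMIs, 5 of 10 pairs had an odds ratio above 1, from 0.540 to 2.15. The highest was SULT1E1 with PTGDS, where 25 of 53 nuclei with SULT1E1 had PTGDS (47.2%) against 29.3% of those without. In DCC-high nuclei 6 of 10 pairs were above 1, from 0.591 to 1.74. For 0 of 10 pairs in each class were the intervals of both shares apart, which is a description and not a test of the difference. These odds rest on 1 thinning draw, and in single draws the shares of so few nuclei move, CGA being in 9.66% of trophoblast-like nuclei in 1 draw to 2000 UMIs against 14.4% expected. Without thinning, the number above 1 was 7 of 9 in trophoblast-like nuclei (0.842 to 7.16, with no odds ratio for CGA with PAGE4), 3 of 10 in DCC-high nuclei (0.738 to 2.80) and 5 of 10 in shallow barcodes (0.785 to 1.21), again with 0 pairs apart. In that step 6 of 9, 5 of 10 and 5 of 10 pairs changed sides of 1, so no direction is read from single pairs. For shallow barcodes that step also widened the set from 687 to 1628 barcodes.

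Among the pooled UMIs of the 5 genes, SULT1E1 made up 32.9% in trophoblast-like nuclei (30.6 to 35.2%), 17.2% in DCC-high nuclei (14.8 to 19.8%) and 10.7% in shallow barcodes (10.1 to 11.4%). With SULT1E1 set aside, CGA made up 16.0%, 15.8% and 15.0% of the UMIs of the other 4 genes, with overlapping intervals. PTGDS made up 20.3% in trophoblast-like nuclei (18.0 to 22.8%) and 13.3% in shallow barcodes (12.5 to 14.0%), and DEFB1 6.92% (5.50 to 8.58%) and 10.5% (9.82 to 11.2%). PAGE4 made up 56.7% in trophoblast-like nuclei (53.8 to 59.7%) and 61.2% in shallow barcodes (60.1 to 62.3%). The intervals of PTGDS, DEFB1 and PAGE4 were thus apart between trophoblast-like nuclei and shallow barcodes, and those of CGA were not.

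Genes most alike in the 286 deep nuclei, by Pearson r of log counts over nuclei of 1 library that differ in depth and class, had low r, which describes these nuclei only. For SULT1E1 they were GPD2 (r = 0.38), KCTD8 (0.37) and TLL1 (0.35). All of these had higher CPM in trophoblast-like than in DCC-high nuclei, for KCTD8 3608 against 388 CPM, yet KCTD8 had 29305 UMIs in the blastocyst library, where SULT1E1 had 2. Within the 145 trophoblast-like nuclei alone, none of these led, and the most alike were BCAP31 (0.32), ZNF215 (0.30) and TRAK1 (0.30). PAGE4 was most like ACTB (0.39), RPS20 (0.37) and RPL24 (0.37), which are abundant housekeeping genes. DEFB1 was most like FTH1 (0.23), YIF1B and RPS7, CGA most like WBP4 (0.26), RPL11 and MMD2, and PTGDS most like S100A16 (0.28), GGT1 and DDX24.

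The partners of CGA were nearly missing. Of 6 glycoprotein hormone subunit genes, 2 had at least 10 UMIs in both libraries together and 1, CGA itself, was over 4-fold higher in the blastoid, beside 11.2% of all genes. The beta subunit genes LHB, FSHB and TSHB had 6, 1 and 1 UMIs in the blastoid library and 2, 3 and 3 in the blastocyst library, and GPHB5 had 0 in both. GPHA2, the other alpha subunit gene, had 23 against 6 UMIs, a ratio of 3.52 (1.39 to 10.6). Of 16 measured regulators of the CGA gene in pituitary or placenta, 0 were over 4-fold higher in the blastoid and 2 were lower, beside 11.2% higher and 7.21% lower over all genes. Lower were GCM1, a factor of trophoblast fusion, with 1 UMI against 89, and the pituitary factor PITX1, with 14 against 84. GATA2 (1349 against 1182 UMIs) and GATA3 (654 against 677) were nearly level, and TFAP2A was 3.58-fold higher (2.75 to 4.70).

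Among trophoblast-like against DCC-high nuclei, 6 of 13 measured CGA regulators were at least 4-fold higher, beside 5.11% of all genes, and 1 was lower, beside 10.8%. The lower one was MSX1, with 2 against 13 UMIs. The higher ones included GATA2, GATA3, TFAP2A and TFAP2C, which were also among the markers that named the class, so their count is a description. CGA itself had a ratio of 1.23.

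Of 10 measured sulfotransferase and oestrogen genes, SULT1E1 was over 4-fold higher in the blastoid and STS and ESR1 were lower, with counts under 3 set to 3, beside 11.2% and 7.21% of all genes. SULT1E1 was itself chosen on this contrast. STS, the sulfatase that removes the sulfate group, had 66 UMIs against 541 (8.94-fold lower, 6.91 to 11.7), and the oestrogen receptor gene ESR1 had 28 against 253. PAPSS1, which makes the sulfate donor, had 683 against 234 UMIs, a ratio of 2.68 (2.30 to 3.12). SULT1B1, a neighbour of SULT1E1 in the RefSeq order of ARS-UCD2.0, had 9 UMIs against 1, a ratio of 8.25 (1.14 to 362) that is 2.75 with the floor of 3 UMIs, and the nearby casein genes CSN1S1 and CSN2 had 0 and 2 in the blastoid library.

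Of 16 measured prostanoid genes, 3 were over 4-fold higher in the blastoid and 1 was lower, beside 11.2% and 7.21% of all genes, and 1 of the 3 was PTGDS, which was chosen on this contrast. The others were PTGES, a prostaglandin E synthase, with 1098 UMIs against 145 (6.94-fold, 5.84 to 8.32), and PTGIS, prostacyclin synthase, with 443 against 19 (21.4-fold, 13.5 to 35.9). PTGS2, the inducible cyclooxygenase upstream of all of them, had 3359 against 1333 (2.31-fold, 2.17 to 2.46). The haematopoietic prostaglandin D synthase gene HPGDS had 29 against 65. Of the prostaglandin D2 receptor genes, PTGDR had 0 UMIs in both libraries and PTGDR2 had 2 and 0, and the prostaglandin F receptor gene PTGFR had 7 against 236.

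PTGDS is also a lipocalin, and 5 of 5 measured lipocalin genes, itself included, were over 4-fold higher in the blastoid, beside 11.2% of all genes. RBP4, the retinol carrier, had 1851 UMIs against 13 (131-fold, 76.2 to 246) and was nearly level per barcode, at 0.952, 1.11 and 0.956 UMIs in trophoblast-like, DCC-high and shallow barcodes. ORM1 had 126 against 0 (at least 38.5-fold), APOM 105 against 21 and LCN2 43 against 9. PAGE4 was the only one of 11 PAGE and GAGE family symbols with a feature here. Of 3 measured beta defensin genes, DEFB1, chosen on this contrast, and EBD were over 4-fold higher, beside 11.2% of all genes, EBD with 189 UMIs against 0, and DEFB4A had 20 against 12. Beta defensin genes are close copies of each other, so reads may be split or lost among them, and the counts of DEFB1 and EBD are uncertain to that extent.

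Genes of placental hormone and binucleate or syncytial cells were mixed. Of 14 measured, 5 were over 4-fold higher in the blastoid and 2 lower, beside 11.2% and 7.21% of all genes. The 14 include SYN1, whose symbol is that of synapsin I, a neuronal gene, with 60 UMIs against 156. SSLP1 had 3318 UMIs against 128 (23.8-fold, 19.9 to 28.6), the trophoblast Kunitz domain gene TKDP4 243 against 0 (at least 74.3-fold) and SDC1 162 against 13. HAND1 and HSD17B1 were called on 16 and 14 UMIs against 1 each. Lower were GCM1 and ADM, and the steroid genes HSD3B1 (290 against 799 UMIs), CYP19A1 (22 against 70) and CYP11A1 (35 against 87) were lower by less than 4-fold. The pregnancy-associated glycoprotein gene PAG1, at 274 against 223 UMIs, had a ratio of 1.13 (0.941 to 1.35), and the placental lactogen gene CSH2 and PRL had 1 and 3 UMIs in the blastoid library. TKDP4 was 6.74-fold higher in trophoblast-like than in DCC-high nuclei (3.23 to 16.3), where the 5 genes had ratios between 1.12 and 2.86.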

How the data were processed

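The authors deposited, for each library, a matrix of raw UMI counts by gene and barcode. Its headers name Cell Ranger 7.2.0. The submitters' processing notes name Cell Ranger 7.1.0 and Seurat 4.3.0. Genome build, annotation and cell calling are not given in the sources used here, so no coordinates are printed. The 5 genes and the gene lists were chosen with earlier results of these data known.

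Barcodes with at least 500 genes and under 10% mitochondrial UMIs were kept, and the highest Scrublet doublet scores were removed at 0.8% per 1000 barcodes (scanpy 1.11.5), which took out 30 blastoid and 6 blastocyst barcodes. Deep blastoid barcodes, from 4000 UMIs, were clustered with leidenalg 0.10.2 (resolution 0.5, 2000 variable genes without the 5 genes, markers and lists, 30 components, 15 neighbours). A trophoblast-like cluster needed at least 3 trophectoderm markers (at least 100 UMIs, 1.5 times the CPM of other deep clusters) and 2 times as many as of any other class. A DCC-high cluster needed 2 times the DCC CPM of those.

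Counts carry exact Poisson, shares exact Clopper-Pearson and ratios exact conditional 95% intervals (scipy 1.17.1). All cover counting error only. Counts under 3 UMIs were set to 3 for ranking, for fold calls and for bounds against 0, and printed ratios against 1 or 2 UMIs are as counted. Thinned shares are expectations over all draws of 2000 UMIs, with the interval taken at the expected count, and co-detection used 1 fixed draw. The thinned share by expectation and the depth bins were chosen after seeing the data. List genes needed 10 UMIs in the 2 sums together, and 4-fold was called. Ranking needed 100 UMIs and 50 CPM. Named genes are the 5 genes, list genes, markers, and per gene the 3 most alike of 6721 genes. Single nuclei were picked by their counts after these had been seen. Alternatives varied filters, depth limits, clustering, scaling and thinning. Ratio intervals were tested on simulated counts with counting error only, so not for a spread between nuclei like that of SULT1E1. The likeness step was tested on simulated data, and thinning on the deposited counts. Clustering, class naming, doublet removal and co-detection were not tested in this way.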

Additional observations from a re-analysis of the deposited data

Results flagged for a closer look

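Barcodes that the filters removed from the blastoid library also held the 5 genes, which drew attention because no comparison above uses them. The 43 removed barcodes, with 93509 UMIs, had 19 UMIs of CGA, 23 of SULT1E1, 19 of PTGDS, 112 of PAGE4 and 18 of DEFB1. That is 0.442, 0.535, 0.442, 2.60 and 0.419 UMIs per barcode. The 117 removed blastocyst barcodes, with 167695 UMIs, had 1 UMI of SULT1E1 and 0 of the other 4.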

How the results depend on the processing

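No log2 ratio of the 5 genes changed sign under the alternatives run. No paired analysis was possible because each group has 1 library, and for the same reason no replicate could be left out. Of the class ratios of the 5 genes, 107 kept their value within the counting interval and 13 moved. Main log2 ratios of CPM, shallow over trophoblast-like, were 2.28 for CGA, 0.34 for SULT1E1, 1.76 for PTGDS, 2.48 for PAGE4 and 2.97 for DEFB1. Scaling by the median gene, which shifts them all by 0.64 because that gene has a log2 ratio of -0.64, gave 2.92, 0.99, 2.40, 3.12 and 3.61. Scaling without ribosomal and mitochondrial genes gave 2.51 for CGA, 0.58 for SULT1E1, 1.99 for PTGDS and 2.72 for PAGE4. Without the 5 highest barcodes of each class, SULT1E1 had 0.89 and CGA 2.55. Resolution 1.0, under which 36 deep nuclei lost the trophoblast-like name, gave 0.15 for SULT1E1 (-0.01 to 0.32), and deep from 3000 UMIs gave 2.33 for PAGE4 and 3 rather than 6 shallow pairs with odds above 1. From trophoblast-like over DCC-high nuclei, SULT1E1 stayed between 1.40 and 1.77. Between libraries, restricting to barcodes of at least 4000 UMIs gave 7.25 for CGA, 6.78 for PAGE4, 6.09 for DEFB1, 7.52 for PTGDS and 8.49 for SULT1E1, against 8.81, 8.22, 8.18, 8.74 and 8.97, since the shallow barcodes are then missing. One fixed thinning draw, added after seeing the data, kept all 10 shares within their intervals. Shares move with thinning by construction. Thinned to 1000 UMIs, trophoblast-like shares were 7.67% for CGA, 16.9% for SULT1E1, 10.5% for PTGDS and 25.4% for PAGE4, and shallow shares 29.3% for CGA, 25.1% for SULT1E1, 26.8% for PTGDS, 75.6% for PAGE4 and 21.6% for DEFB1. Not thinned, trophoblast-like shares were 56.6%, 69.7%, 77.2%, 97.9% and 35.9% in the order CGA, SULT1E1, PTGDS, PAGE4, DEFB1, above the shallow shares of 46.3%, 42.4%, 43.6%, 91.4% and 35.4%, whereas thinned they were below them. Of 60 list genes other than the 5, 12 were higher and 6 lower in the blastoid at 4-fold (all genes 11.2% and 7.21%), 24 and 12 at 2-fold (24.2% and 20.7%), and 9 and 3 of the 36 with at least 100 UMIs at 4-fold (10.4% and 5.43%). The cause of the other shifts was not tested.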

Other observations

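Genes next to the 5 were taken from the RefSeq order of ARS-UCD2.0. ZNF292, beside CGA, had 955 blastoid and 1002 blastocyst UMIs. CLCN5, near PAGE4, had 1694 and 1292. SULT1B1, near SULT1E1, had 9 and 1, and LCN12, beside PTGDS, had 2 and 1, too few to compare. The nearest genes to DEFB1 in that order, DEFB7 and DEFB10 among them, had no feature under their symbols in these libraries.

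Genes that ranked just past the 5 were distributed in several ways over the blastoid classes. HOXB6 was at 3.38 UMIs per DCC-high nucleus, 0.138 per trophoblast-like nucleus and 0.139 per shallow barcode, and CSRNP3, among the leading genes of the DCC-high cluster, at 5.45, 0.0621 and 0.0326. MFAP2, a gene of microfibrils, was at 0.702, 0.552 and 0.424 UMIs per barcode, and DNASE1L3, a secreted nuclease gene, was highest in trophoblast-like nuclei at 1.88 against 1.09 and 0.755. These genes were named after their values were seen.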
